A study of Mus musculus with 9 samples.

Results

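Imprinted genes are transcribed mainly from the copy inherited from a single parent, and 36 of them were followed here in reporter-sorted cells of differentiating embryoid bodies. They were taken from a named list covering the main mouse imprinted loci, and each was read from a probe set that the platform annotation assigns to that gene alone. Such a probe set was found for 31 of the 36, out of 22180 genes tested. Where a gene had several, the brightest was kept. Rtl1, Mirg, H19 and Snrpn had probe sets shared with other symbols, and Zrsr1 matched no symbol in the annotation used here, so these 5 have no values below.

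The samples were mouse embryonic stem cells carrying a transgene in which the alpha-fetoprotein (Afp) promoter drives green fluorescent protein. They were grown as embryoid bodies, which are aggregates whose cells form derivatives of the germ layers, in serum-containing medium on gelatin. Reporter-positive cells were sorted at day 4, day 7 or day 21, with 3 arrays per day and 9 in all, and every group carried the same transgene. The labels name no separate cultures and no unsorted or reporter-negative control, so each p-value reflects only how far these arrays scatter, and that scatter may be technical.

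Most imprinted genes lie in clusters that share an imprinting control region, a stretch of DNA whose methylation differs between the maternal and the paternal copy from the germ line onward. Many paternally expressed genes promote fetal and placental growth and several maternally expressed genes restrain it, and the family is active in fetal liver, yolk sac, placenta and mesenchyme. The arrays measure total transcript and do not separate the parental copies. The allele named beside each gene is therefore background knowledge, and 7 of the 31 are grouped as tissue-dependent because the expressed allele varies with tissue or transcript.

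Signals are log2 values, and 1 unit is a 2-fold difference. Values after ± are standard deviations (SD) over the 3 arrays of a day or, for log2 changes, standard errors (SE) of the limma model. A gene is said to have risen or fallen when its Benjamini-Hochberg adjusted p over all 22180 genes, from limma, was below 0.05. The background is the 95th percentile of 1105 olfactory receptor genes, which are silent in most cells, and its day values were 6.01, 5.99 and 6.0. By that measure 24 members were above background at day 4, 25 at day 7 and 25 at day 21. Afp, the gene whose promoter the sort relied on, was below background at day 4 (5.72 ± 0.18), and well above it at day 7 (10.60 ± 0.07) and day 21 (13.07 ± 0.11). The day 4 reading goes against the description of those cells as sorted for the reporter. Whether the day 4 cells matched the later ones in the sort was not tested, which limits every change against day 4.

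Between days 4 and 7 the imprinted genes moved mainly upward, and between days 7 and 21 they divided. At day 7 against day 4, 15 of 31 rose, 1 fell and 15 did not pass, where 13.4% of all genes were called, 6.98% risen and 6.47% fallen. The median log2 change was 0.37 over the members and -0.01 over all genes. At day 21 against day 7, 6 rose, 7 fell and 18 did not pass, with 23.0% of all genes called, 12.4% risen and 10.7% fallen, and medians of -0.05 and -0.03. Over the whole course, day 21 against day 4, 12 rose, 4 fell and 15 did not pass, with 29.1% of all genes called, 15.0% risen and 14.1% fallen, and medians of 0.17 and -0.03. Arrays of the days compared did not overlap for 19, 16 and 18 members in these 3 comparisons, as they did not for 29.9%, 35.5% and 40.4% of all genes. The 3 comparisons share arrays in pairs and are not independent. In sorted cells measured in bulk, a change in the share of cells of a type and a change of RNA per cell cannot be told apart.

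Genes of each allele group were among the risers of the first interval. Of 18 measured paternally expressed genes, 8 rose and 1 fell between days 4 and 7. Of 6 maternally expressed genes 3 rose and 0 fell, and of the 7 tissue-dependent genes 4 rose and 0 fell. From day 7 to day 21 the paternal group had 3 risen and 3 fallen, the maternal group 2 and 3, and the tissue-dependent group 1 and 1. From day 4 to day 21 the counts were 8 and 3, 1 and 1, and 3 and 0 in that order. These counts were not compared by a test.

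**Figure D1:**
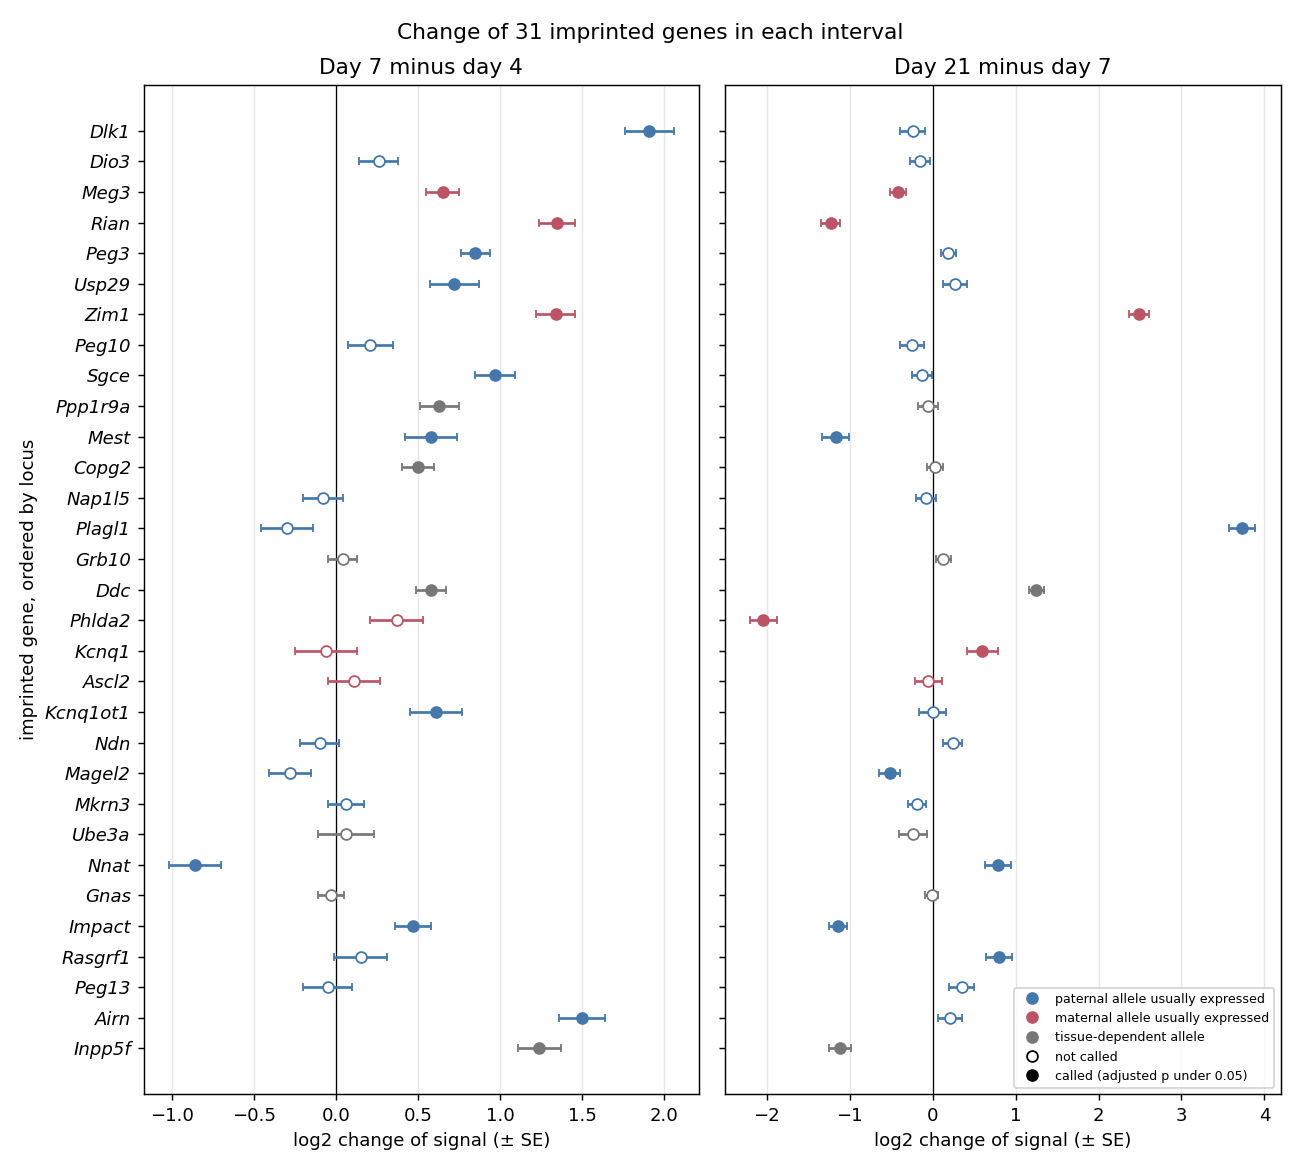
Log2 change (horizontal axis, ± SE) of each of the 31 measured imprinted genes (vertical axis, ordered by locus) at day 7 minus day 4 and at day 21 minus day 7, with 3 arrays per day. Filled points passed the adjusted test, 15 upward and 1 downward on the left, 6 upward and 7 downward on the right, and colour gives the allele usually expressed.

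Seen across both intervals, 8 genes rose by day 7 and did not pass afterwards, 5 rose and then fell, 2 rose in both intervals, 3 rose only after day 7 by this test, 2 fell only after day 7 by this test, 1 fell and then rose, and 10 passed in neither. Differences between the intervals were not tested. The rise that did not pass again afterwards was that of Dlk1, Peg3, Usp29, Sgce, Ppp1r9a, Copg2, Kcnq1ot1 and Airn. Meg3, Rian, Mest, Impact and Inpp5f rose and then fell.

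The Dlk1-Dio3 cluster on chromosome 12 carries 3 protein-coding genes expressed from the paternal copy and a long row of non-coding RNAs expressed from the maternal copy. Dlk1 (probe set 17278647) encodes a membrane protein of the Notch ligand family that holds back adipocyte differentiation and marks hepatoblasts. Its signals were 7.29, 6.81 and 7.29 at day 4, 9.03, 9.08 and 9.01 at day 7, and 9.07, 8.64 and 8.69 at day 21. All day 7 and day 21 arrays lay above all day 4 arrays, and those of days 7 and 21 overlapped. Dlk1 rose 3.75-fold by day 7 (log2 change 1.91 ± 0.15, limma adjusted p = 1.70e-05) and its later change did not pass, at -0.24 ± 0.15 (adjusted p = 0.329).

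Rian (17278715), a maternally expressed non-coding RNA that is the host of box C/D small nucleolar RNAs (snoRNAs), read 10.88, 10.80 and 10.80 at day 4. It read 12.19, 12.27 and 12.08 at day 7 and 11.03, 11.03 and 10.77 at day 21. The day 7 arrays were high and did not overlap either other day, while days 4 and 21 overlapped. Rian rose 2.56-fold and then fell 2.35-fold (log2 changes 1.35 ± 0.11 and -1.23 ± 0.11, limma adjusted p = 1.29e-05 and 1.43e-05). Its net change of 0.12 ± 0.11 did not pass (adjusted p = 0.467).

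Meg3 (17283955), the maternally expressed long non-coding RNA at the start of the same transcribed stretch, also rose and then fell. Its signals were 6.81, 6.80 and 6.77, then 7.54, 7.44 and 7.35, then 7.13, 7.06 and 6.87 at days 4, 7 and 21. The 3 days did not overlap. Meg3 rose by 0.65 ± 0.10 (limma adjusted p = 0.00145) and then changed by -0.42 ± 0.10 (adjusted p = 0.0117), while the net change of 0.23 ± 0.10 did not pass (adjusted p = 0.122). Without day 21 replicate 3 the net change was 0.30 and passed (adjusted p = 0.0453). Dio3, a thyroid hormone-inactivating deiodinase at the far end of the cluster, was below background on every day (4.61 ± 0.21, 4.87 ± 0.12 and 4.72 ± 0.08) and was not called in any comparison.

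The maternal strand of this cluster is also the source of many microRNAs (miRNAs) and snoRNAs, and their precursors have probe sets of their own. This extension beyond the listed genes was chosen after the values of Meg3 and Rian were seen. RefSeq for assembly GRCm38.p6 places 103 genes from Dlk1 to Dio3, and 55 of them were measured, among them 43 miRNA genes and 6 snoRNA genes. These probe sets lie along the same transcribed stretch, so they share a source and are not independent, and they are assigned to precursor genes, not to the mature arms. Sequences below are mature miRNAs from RefSeq (GRCm38.p6), which held at least 1 for each of the 43 genes and 81 in all. Shown first are those of the 3 miRNA genes with the largest rises at day 7, Mir154, Mir411 and Mir376a. All 3 were below background at days 4 and 21, and Mir376a also at day 7, so those sizes are set against a floor. They are written 5′ to 3′ with the seed, bases 2 to 8, in capitals.
mmu-miR-154-5p: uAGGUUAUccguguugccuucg
mmu-miR-154-3p: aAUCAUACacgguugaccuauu
mmu-miR-411-5p: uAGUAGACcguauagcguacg
mmu-miR-411-3p: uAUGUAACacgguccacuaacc
mmu-miR-376a-5p: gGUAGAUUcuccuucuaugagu
mmu-miR-376a-3p: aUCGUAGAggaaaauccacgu

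The 81 mature sequences carried 73 distinct seeds, and 8 seeds were present on 2 arms each. Shown next are 3 of those shared seeds, because they tie separate genes of the row to the same seed: GGUAGAC of miR-379-5p and miR-1193-5p, AUGUAAC of miR-379-3p and of miR-411-3p above, and UGGAUAU of miR-376b-5p and miR-376c-5p.
mmu-miR-379-5p: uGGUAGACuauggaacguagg
mmu-miR-1193-5p: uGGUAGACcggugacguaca
mmu-miR-379-3p: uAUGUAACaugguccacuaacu
mmu-miR-376b-5p: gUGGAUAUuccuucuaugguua
mmu-miR-376c-5p: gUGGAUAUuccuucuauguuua

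Most small RNA genes of the row rose by day 7 and fell again by day 21. Over the 49 genes, the median signal of an array was 6.43, 6.35 and 6.35 at day 4, 8.43, 7.99 and 8.01 at day 7, and 6.41, 6.49 and 5.99 at day 21. The day 7 arrays stood above all others. Of all genes 6.98% rose and 6.47% fell by day 7. From day 7 to day 21, 12.4% of all genes rose and 10.7% fell, and from day 4 to day 21, 15.0% and 14.1%. By limma's adjusted test 42 of the 49 rose and 0 fell by day 7, 46 fell and 0 rose from day 7 to day 21, and 42 did both. The medians of the log2 change were 1.67 and -1.72, and it was 0.01 from day 4 to day 21, when Mir376a rose, below background throughout, and Mir540 fell. Only 26 of the 49 were above background at day 4, 41 at day 7 and 26 at day 21, so these medians include differences set against a floor and are no measure of fold for the whole row. The counts called from day 4 to day 21, 1 risen and 1 fallen, depended on single arrays. They became 5 risen without day 21 replicate 3 and 4 fallen without day 21 replicate 2. Without day 4 replicate 2 there were 2 risen, and without day 7 replicate 1 there were 2 fallen. The riser was lost without day 4 replicate 1, day 21 replicate 1 or day 21 replicate 2.

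Mir154 read 4.36, 5.88 and 4.97 at day 4, 8.45, 8.20 and 8.23 at day 7, and 6.21, 6.46 and 5.25 at day 21. Its day 7 arrays lay above all the others, and the day 4 and day 21 arrays overlapped. Mir154 rose by 3.23 ± 0.37 (limma adjusted p = 1.94e-04) from a mean below background, so the size of that rise is set against a floor. Among genes above background on all 3 days, Mir382 read 7.79, 7.36 and 7.62, then 10.69, 10.70 and 10.03, then 8.75, 8.26 and 7.37, and it rose 7.39-fold (2.89 ± 0.31, adjusted p = 1.19e-04). The snoRNA gene DQ267102, inside Rian, read 8.70, 8.61 and 8.40, then 10.70, 10.65 and 10.61, then 8.62, 8.74 and 8.99. It rose 4.25-fold and then changed by -1.88 ± 0.12 (adjusted p = 1.86e-06).

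The same course was seen in each annotated section of the row. Of 8 small RNA genes inside Rian 8 rose and then fell, of 6 inside Mirg 5 rose and 6 fell, and of 7 inside the RefSeq span of Rtl1 5 rose and 6 fell. The Mirg and Rtl1 transcripts themselves have no probe set of their own. Of the other 28 small RNA genes, which lie in none of these spans, 24 rose and 26 fell. Beside these counts, 6.98% of all genes rose by day 7 and 10.7% fell from day 7 to day 21. Among genes of the row that did not rise was Mir673 (0.01 ± 0.19, limma adjusted p = 0.991).

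**Figure D2:**
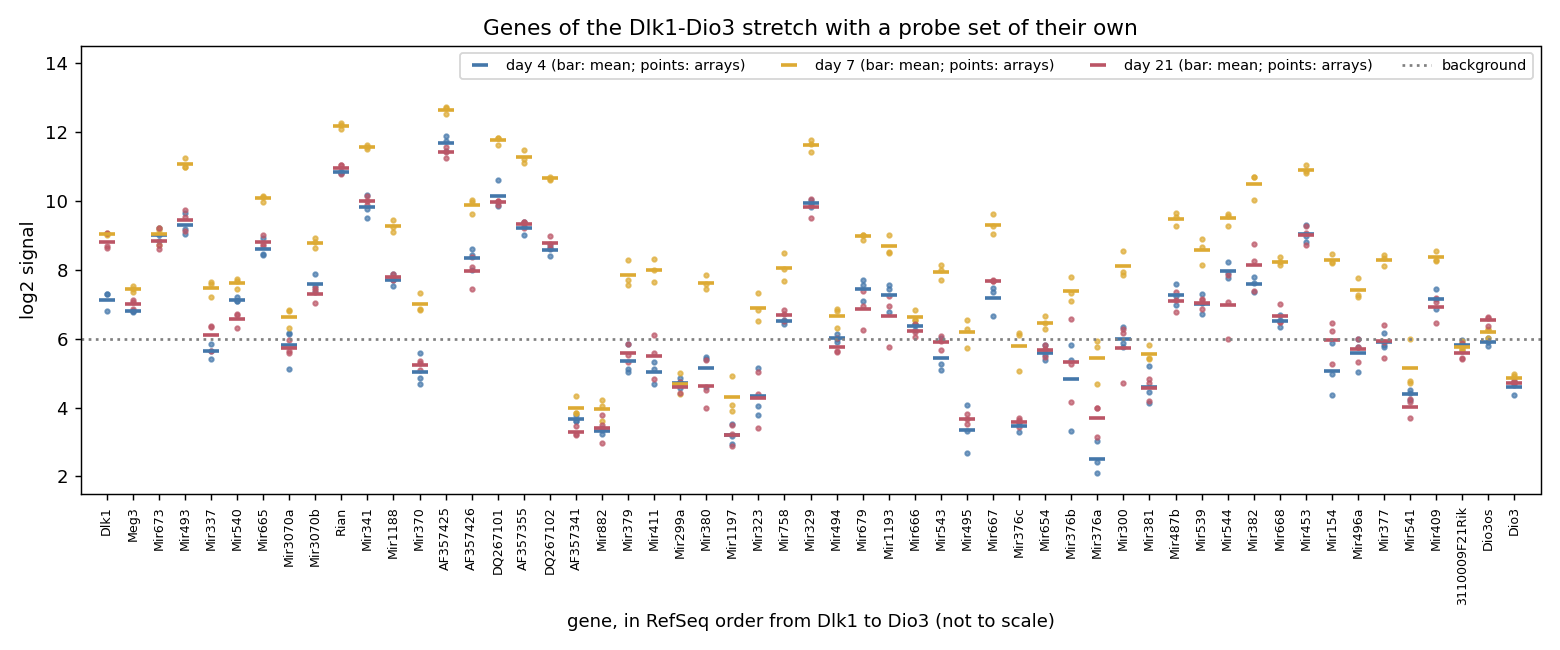
Log2 signal (vertical axis) of the 55 measured genes from Dlk1 to Dio3 in RefSeq order (horizontal axis, not to scale), with a point per array and a bar at the mean of the 3 arrays of each day. The day 7 values of most small RNA genes stand above those of days 4 and 21, which lie together, whereas the day 7 and day 21 arrays of Dlk1 overlap above those of day 4.

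The same counts were taken over small RNA genes elsewhere in the genome, as a description without a test. How many of those genes were above background was not counted, so the shares elsewhere may include genes at the floor. Of 435 miRNA genes outside the cluster 2.53% rose and 1.61% fell by day 7, with a median log2 change of 0.02, against 37 risen of 43 inside it. From day 7 to day 21, 5.52% rose and 4.83% fell outside, against 40 fallen of 43 inside. For snoRNA genes the second interval differs from the first. Of 75 outside the cluster 3 rose and 2 fell by day 7, but 36 fell and 1 rose from day 7 to day 21, with a median of -0.68. The fall of the 6 snoRNA genes of the cluster, at a median of -1.84, therefore stood beside many falls in the same class of genes elsewhere.

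**Figure D3:**
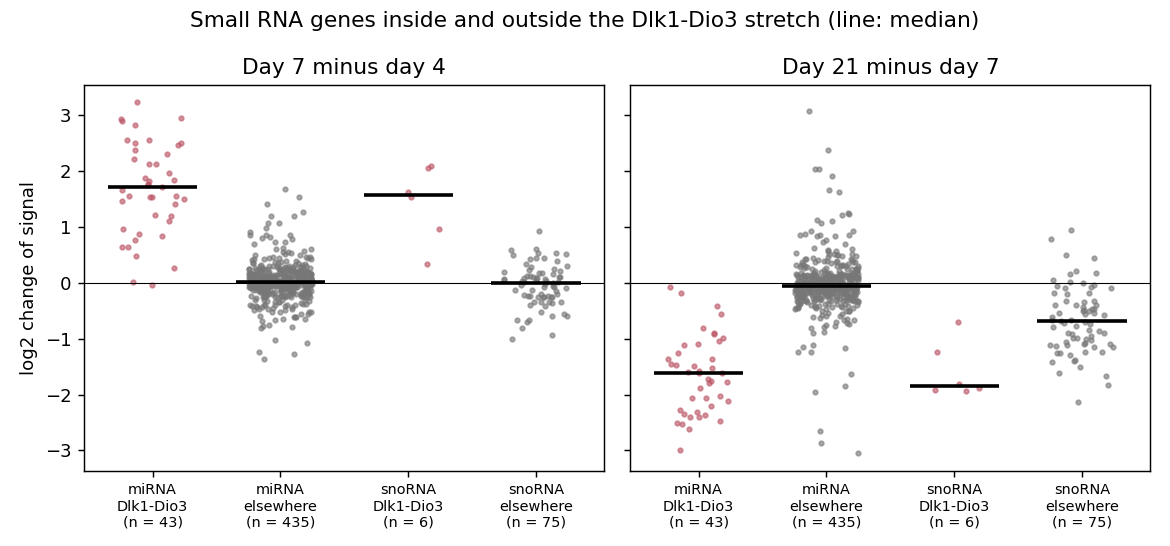
Log2 change (vertical axis) of every measured miRNA and snoRNA gene in each interval, inside the Dlk1-Dio3 cluster (43 and 6 genes) and elsewhere (435 and 75 genes), with a bar at the median of each set. The medians inside are 1.72 and 1.58 in the first interval and -1.62 and -1.84 in the second, and those elsewhere are 0.02 and -0.01, then -0.06 and -0.68.

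The Peg3 cluster on chromosome 7 rose at all 3 of its measured genes. Peg3 (17486110), a paternally expressed zinc finger protein of stem and progenitor cells, read 12.05, 11.98 and 11.88 at day 4, 12.78, 12.92 and 12.77 at day 7, and 13.04, 13.05 and 12.95 at day 21. The day 4 arrays were the lowest, and no 2 days overlapped. Peg3 rose by 0.85 ± 0.09 by day 7 (limma adjusted p = 1.51e-04), while the further 0.19 ± 0.09 did not pass (adjusted p = 0.201). Usp29, which shares the promoter region of Peg3 in the opposite orientation, rose by 0.72 ± 0.15 (adjusted p = 0.00931) but stayed below background on every day.

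Zim1 (17486099), a maternally expressed zinc finger gene next to Peg3, had the largest net rise of the 31 members. Its signals were 6.37, 6.71 and 6.73 at day 4, 7.97, 8.04 and 7.84 at day 7, and 10.38, 10.53 and 10.42 at day 21. Each day stood clear of the one before. Zim1 rose by 1.34 ± 0.12 and then by 2.49 ± 0.12 (limma adjusted p = 3.08e-05 and 2.12e-07), a 14.3-fold rise in all.

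Plagl1 (17231694), a paternally expressed zinc finger transcription factor that restrains cell division and acts on other imprinted genes, had the largest change in a single interval. It read 7.48, 7.67 and 7.62 at day 4, 7.03, 7.69 and 7.15 at day 7, and 11.15, 10.98 and 10.95 at day 21. Days 4 and 7 overlapped, and the day 21 arrays stood far above both. Plagl1 rose 13.3-fold from day 7 to day 21 (log2 change 3.73 ± 0.16, limma adjusted p = 1.13e-07) after a change of -0.30 ± 0.16 that did not pass (adjusted p = 0.309). Without day 7 replicate 2 that earlier change was -0.50 and passed (adjusted p = 0.0248), which made it 2 members fallen by day 7 in place of 1. A dimmer probe set of the gene (17239360) went from 3.36 ± 0.38 to 8.0 ± 0.64 between days 7 and 21.

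**Figure D4:**
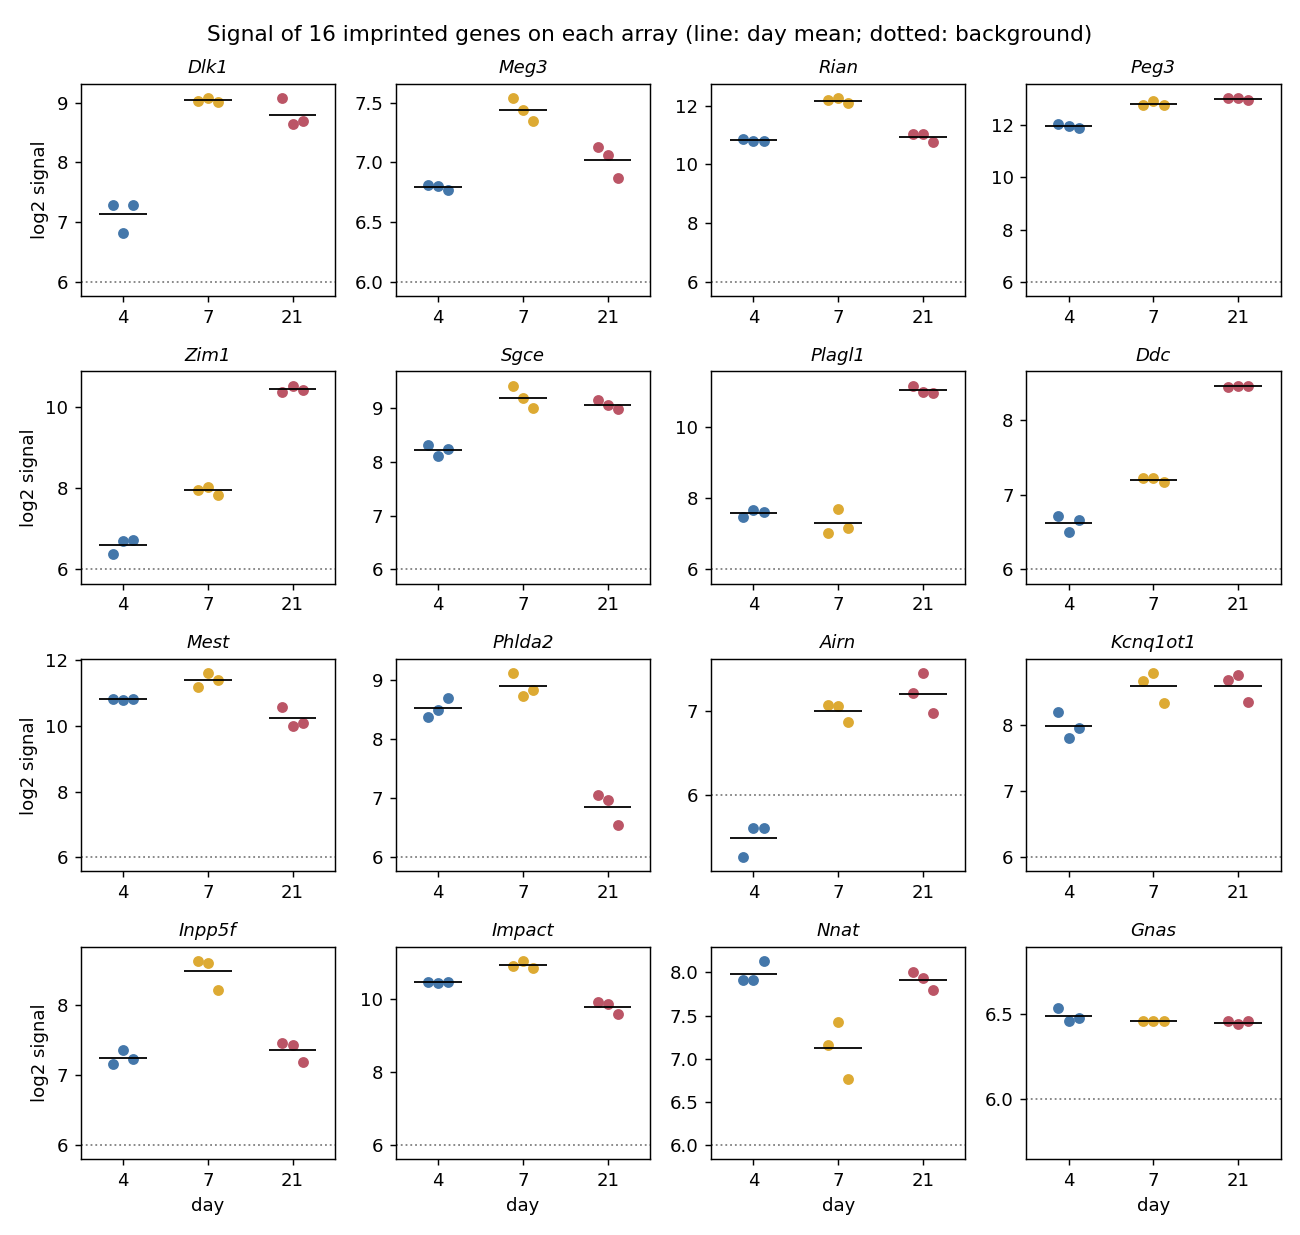
Log2 signal (vertical axis, scaled per gene) of 16 imprinted genes on each of the 9 arrays by day (horizontal axis), with a bar at the day mean and a dotted line at the background. Rian and Inpp5f peak at day 7, Dlk1, Sgce and Kcnq1ot1 stay at their day 7 level, Zim1 and Ddc climb throughout, Plagl1 is high at day 21 alone of the 3 days, and Phlda2 is lowest there.

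On the proximal part of chromosome 6, the paternally expressed Sgce, epsilon-sarcoglycan of the muscle membrane complex, rose by 0.97 ± 0.12 by day 7 (limma adjusted p = 3.22e-04). Its neighbour Ppp1r9a, a neuronal actin-binding protein whose imprinting is known mainly in extraembryonic tissue and muscle, rose by 0.63 ± 0.12 (adjusted p = 0.00512). Peg10, a retrotransposon-derived gene needed for the placenta, shares its promoter region with Sgce but read 11.70 ± 0.25, 11.91 ± 0.10 and 11.66 ± 0.17 and was not called in any comparison. A difference between Sgce and Peg10 was not tested.

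Mest (17456934), a paternally expressed hydrolase-like protein of mesoderm and growing tissue, read 10.82, 10.80 and 10.82 at day 4, 11.20, 11.60 and 11.39 at day 7, and 10.58, 10 and 10.10 at day 21. The day 7 arrays were highest and the day 21 arrays lowest, with no overlap between days. Mest changed by -1.17 ± 0.16 from day 7 to day 21 (limma adjusted p = 3.12e-04). Its rise by day 7 was 0.58 ± 0.16 (adjusted p = 0.0325) and failed the test when any of day 4 replicates 1, 2 or 3 or day 7 replicates 2 or 3 was left out, with adjusted p between 0.0848 and 0.115. Its net change of -0.59 failed without day 21 replicate 2 (adjusted p = 0.0633) or 3 (0.0532). Copg2, a coatomer subunit of Golgi vesicles that overlaps the end of Mest on the opposite strand, rose by 0.50 ± 0.10 (adjusted p = 0.00891) and then changed by 0.03 ± 0.10. Whether these probe sets separate the strands was not examined.

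Many imprinting control regions contain the hexamer TGCCGC, which the zinc finger protein ZFP57 binds when methylated to keep the imprint through early development. It was searched on both strands (GCGGCA is its reverse complement) in the RefSeq promoter windows of GRCm38.p6, which run from 250 bases before to 50 after a start. It was present in 11.6% of the 32851 windows. Of the 36 members 29 had a window, and 10 of their 41 windows (24.4%) held it, at 9 genes. The hexamer contains the bases CG, and the median CG count over all windows was 7. Member windows with a match had CG counts from 7 (Snrpn) to 45 (Grb10). The shares of 11.6% and 24.4% were not compared at equal CG count. No excess of the hexamer among members is drawn from them. Several windows belong to the same gene and some overlap, and a match in a window is no evidence of binding. Shown here are the 250 bases before the start for the 4 members that held a match and were called between days 4 and 21, which are also genes that went different ways. Sequences run 5′ to 3′ on the strand of the gene, with matches in capitals.
Mest, chr6:30737800-30738049, strand plus: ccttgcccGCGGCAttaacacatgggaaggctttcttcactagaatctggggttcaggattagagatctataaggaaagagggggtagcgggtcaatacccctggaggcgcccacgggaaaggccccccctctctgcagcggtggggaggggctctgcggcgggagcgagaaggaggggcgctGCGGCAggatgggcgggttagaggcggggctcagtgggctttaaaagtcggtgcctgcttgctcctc
Copg2, chr6:30896795-30897044, strand minus: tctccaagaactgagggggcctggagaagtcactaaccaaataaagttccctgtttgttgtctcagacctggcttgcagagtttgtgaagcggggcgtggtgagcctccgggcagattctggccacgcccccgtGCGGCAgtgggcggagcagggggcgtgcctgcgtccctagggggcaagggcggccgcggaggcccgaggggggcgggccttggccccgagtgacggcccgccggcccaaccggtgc
Plagl1, chr10:13090582-13090831, strand plus: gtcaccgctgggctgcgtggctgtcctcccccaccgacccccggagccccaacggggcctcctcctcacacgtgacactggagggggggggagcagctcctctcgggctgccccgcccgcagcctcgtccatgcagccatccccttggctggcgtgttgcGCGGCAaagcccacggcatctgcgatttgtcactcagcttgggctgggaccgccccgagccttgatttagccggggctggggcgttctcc
Zim1, chr7:6696433-6696682, strand minus: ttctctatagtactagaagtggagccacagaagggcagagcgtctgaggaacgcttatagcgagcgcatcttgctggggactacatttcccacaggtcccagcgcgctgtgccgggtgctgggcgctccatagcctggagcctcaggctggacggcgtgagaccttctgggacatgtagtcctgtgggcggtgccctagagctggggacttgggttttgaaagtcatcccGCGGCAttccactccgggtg

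Of these 4, Mest held 2 matches and fell over the whole course (-0.59 ± 0.16), while Copg2 (0.52 ± 0.10), Plagl1 (3.44 ± 0.16) and Zim1 (3.83 ± 0.12) held 1 each and rose. Carrying the hexamer thus went with both directions. Windows of Nap1l5, Nnat, Meg3, Grb10 and Snrpn also held it, of which the first 4 were not called between days 4 and 21 and Snrpn has no value.

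The Kcnq1 cluster on the distal part of chromosome 7 is silenced on the paternal copy by the non-coding RNA Kcnq1ot1. Phlda2 (17498251), a maternally expressed brake on placental growth in that cluster, read 8.38, 8.50 and 8.70 at day 4, 9.12, 8.74 and 8.84 at day 7, and 7.06, 6.97 and 6.55 at day 21. All day 21 arrays lay below all the others. Phlda2 fell 4.11-fold from day 7 to day 21 (log2 change -2.04 ± 0.16, limma adjusted p = 6.99e-06), the deepest fall among the members. Kcnq1ot1 (17498239) read 8.19, 7.80 and 7.96, then 8.66, 8.78 and 8.34, then 8.68, 8.75 and 8.35, so days 7 and 21 overlapped above day 4. It rose by 0.61 ± 0.16 by day 7 (adjusted p = 0.0257) and that call was lost without day 4 replicate 2 or 3 or day 7 replicate 1 or 2 (adjusted p 0.0802 to 0.102). Its net rise, 0.61 ± 0.16 with adjusted p = 0.0126, was lost without day 4 replicate 2 (0.0545) or day 21 replicate 2 (0.0513).

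Kcnq1 itself, a potassium channel, read 5.67 ± 0.16 and 5.61 ± 0.14, both below background, and 6.21 ± 0.41 at day 21. Its call from day 7 to day 21 (0.60 ± 0.19, limma adjusted p = 0.0415) was lost when any array other than day 21 replicate 1 was left out, with adjusted p between 0.0516 and 0.133. Its day 7 and day 21 arrays overlapped. Its net change of 0.54 ± 0.19 did not pass (adjusted p = 0.0532) and passed without day 21 replicate 1 (0.77, adjusted p = 0.00242). Ascl2, a maternally expressed transcription factor of trophoblast, was below background on all 3 days and not called. In the trophoblast list 3 of 9 measured markers were above background at days 4 and 7 and 2 at day 21. Of all 22180 genes 12152, 12316 and 12583 were above it at days 4, 7 and 21. Krt7 (6.61, 6.62 and 8.69) and Hand1 (7.25, 7.36 and 6.4) were above it on all 3 days. Eomes (10.27, 7.9 and 5.84) was above it at days 4 and 7. Cdx2, Elf5, Tpbpa, Plac1, Tfap2c and Psg17 were below it throughout.

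Airn (17333307), a paternally expressed non-coding RNA that silences Igf2r in cis, read 5.27, 5.62 and 5.61 at day 4, 7.07, 7.06 and 6.87 at day 7, and 7.21, 7.44 and 6.97 at day 21. It went from below background to above it, and days 7 and 21 overlapped. Airn rose by 1.5 ± 0.14 by day 7 (limma adjusted p = 5.56e-05), a size set against a floor. Igf2r, looked up after Airn was seen, read 8.44 ± 0.21, 8.73 ± 0.18 and 8.76 ± 0.29 and was not called in any comparison. Grb10, an adaptor that dampens insulin and growth factor signals, read 9.74 ± 0.09, 9.78 ± 0.08 and 9.92 ± 0.04 and was not called. Its neighbour Ddc (17260644), an aromatic amino acid decarboxylase, read 6.71, 6.50 and 6.66, then 7.22, 7.22 and 7.17, then 8.44, 8.46 and 8.45, with no overlap. Ddc rose by 0.58 ± 0.09 and then by 1.25 ± 0.09 (adjusted p = 0.00166 and 4.86e-06).

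Among genes with the day 7 peak, Inpp5f (17483740), a phosphoinositide phosphatase with a paternally expressed variant in brain, read 7.15, 7.35 and 7.22, then 8.62, 8.60 and 8.21, then 7.46, 7.42 and 7.19. Only the day 7 arrays stood apart. Inpp5f rose by 1.24 ± 0.13 and then changed by -1.12 ± 0.13 (limma adjusted p = 1.19e-04 and 1.38e-04). Impact (17348604), a paternally expressed regulator of the translational stress kinase Gcn2, read 10.46 ± 0.02, 10.93 ± 0.10 and 9.79 ± 0.18. It changed by -1.14 ± 0.11 from day 7 to day 21 (adjusted p = 3.54e-05). The call of its earlier rise (0.47 ± 0.11, adjusted p = 0.0176) was lost without day 4 replicate 2 or 3 or day 7 replicate 2 (adjusted p 0.0529 to 0.0675).

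Nnat (17393764), neuronatin, a paternally expressed small membrane protein of nerve and endocrine cells, went the opposite way. It read 7.91, 7.91 and 8.13 at day 4, 7.16, 7.43 and 6.76 at day 7, and 8.01, 7.93 and 7.80 at day 21. The day 7 arrays lay below all others, and days 4 and 21 overlapped. Nnat changed by -0.86 ± 0.16 and rose again by 0.79 ± 0.16 (limma adjusted p = 0.00413 and 0.00420). A dimmer probe set of the gene (17378741) was not called in either interval, with changes of -0.25 and 0.10.

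Of the 4 measured genes of the Snrpn cluster, Magel2 was the 1 that was called. Ndn and Mkrn3 were not called in any comparison, with day means between 6.73 and 6.96 for Ndn and between 6.28 and 6.47 for Mkrn3. Magel2, a ubiquitin ligase cofactor of the same MAGE family as Ndn, changed by -0.79 ± 0.13 from day 4 to day 21 (limma adjusted p = 7.97e-04) and ended below background at 5.93 ± 0.14. The call of its fall from day 7 (-0.52 ± 0.13, adjusted p = 0.0133) was lost without day 7 replicate 1 (0.0534) or day 21 replicate 1 (0.0523). Ube3a, a ubiquitin ligase imprinted mainly in neurons, read 9.24 ± 0.04, 9.30 ± 0.11 and 9.06 ± 0.40 and was not called. Of 12 neural markers 8, 7 and 5 were above background at days 4, 7 and 21, beside 12152, 12316 and 12583 of all 22180 genes. Tubb3, Elavl3 and Rbfox3 were above it on all 3 days, and Elavl4, Neurod1 and Dcx were below it throughout. Map2 and Snap25 were above it at days 4 and 21, Sox1, Syp and Nefl at days 4 and 7, and Pax6 at day 7.

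The remaining members were dim or flat. Rasgrf1, a Ras exchange factor, rose by 0.80 ± 0.16 from day 7 to day 21 (limma adjusted p = 0.00373) but had no day mean above background. Nap1l5 and Peg13 had day means between 5.71 and 6.08 and were not called. Peg13 passed without day 21 replicate 3 from day 7 (0.49, adjusted p = 0.0287) and from day 4 (0.44, adjusted p = 0.0361). Gnas, the stimulatory G protein subunit with several imprinted first exons, lay between 6.44 and 6.54 on all 9 arrays on the only probe set that is its own. All 3 day 7 arrays read 6.46, and how well this probe set follows the gene's transcripts was not examined. A further Gnas probe set, shared with other symbols, was not used.

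Markers of cell types that a sort could hold moved in the same intervals. Beside the counts below, 6.98% of all genes rose and 6.47% fell by day 7. From day 7 to day 21, 12.4% rose and 10.7% fell, and from day 4 to day 21, 15.0% and 14.1%. Of all 22180 genes 12152, 12316 and 12583 were above background at days 4, 7 and 21. Of 11 measured visceral endoderm markers 11 rose by day 7, and 10 fell and Afp rose from day 7 to day 21. From day 4 to day 21, 9 of these markers rose and 0 fell. Their summed linear signal was 1429 to 1868 per array at day 4, 20686 to 22250 at day 7 and 14175 to 16071 at day 21. These counts and sums include Afp, the gene of the sort, which read 10.6 ± 0.07 at day 7 and 13.07 ± 0.11 at day 21. The day 21 sums are therefore no measure of the fall of the other 10. Of 11 measured mesenchyme markers 4 fell by day 7 and 10 rose from day 7 to day 21, with sums of 1947 to 2070, 1018 to 1268 and 7467 to 15239. From day 4 to day 21, 6 of these mesenchyme markers rose and 1 fell. Of these 11 markers 9 were above background at day 4, 9 at day 7 and 11 at day 21, and the ones below it at days 4 and 7 were Dcn and Lum. Of 12 hepatic markers 0, 3 and 8 were above background at the 3 days (sums 421 to 456, 947 to 957 and 7622 to 9676). Of 12 muscle markers 4 rose by day 7 and 4 fell from day 7 to day 21 (sums 1325 to 1430, 3322 to 3671 and 1701 to 1793). From day 4 to day 21, 2 of these muscle markers rose and 1 fell. Linear sums weigh bright genes most, here Tnnc1 at day 7 (7.68 ± 0.52, 10.89 ± 0.17 and 8.41 ± 0.13 at the 3 days). The remaining 8 of the 12 were not called by day 7. Of 12 pluripotency markers 2 rose and 3 fell by day 7, and 1 rose and 5 fell from day 7 to day 21. From day 4 to day 21, 2 of the 12 rose and 7 fell, and 9, 8 and 6 were above background at days 4, 7 and 21. The part of these cell types in the changes of Dlk1, Plagl1, Zim1 and the small RNA genes was not tested.

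Other genes reported as imprinted in the mouse were counted from a list of 61, of which 54 were measured. By limma's adjusted test 5 rose and 2 fell by day 7, 16 rose and 8 fell from day 7 to day 21, and 17 rose and 7 fell over the whole course, with medians of 0.00, 0.03 and 0.03. The share called was 13%, 44.4% and 44.4%, beside 13.4%, 23.0% and 29.1% of all genes, so the first share is near that of all genes. Igf2, the fetal growth factor beside H19, rose by 0.99 ± 0.09 and then by 0.94 ± 0.09. Cdkn1c, a cell cycle inhibitor of the Kcnq1 cluster, rose by 0.98 ± 0.12 by day 7, whereas Slc38a4, an amino acid transporter, changed by -0.98 ± 0.09 and then rose by 0.69 ± 0.09. Atp10a likewise changed by -1.13 ± 0.18 by day 7 and then rose by 0.95 ± 0.18. Among later fallers, Asb4 changed by -1.07 ± 0.12 from day 7 to day 21 and Adam23 by -1.64 ± 0.25 over the whole course. Dcn, which is also counted among the mesenchyme markers, rose by 6.84 ± 0.26 from day 7 to day 21. Ano1, a chloride channel, rose by 3.31 ± 0.12 in that interval, and both started from a mean below background.

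Among factors that set, read or protect imprinting marks, more fell than rose in each comparison. Of 23 listed and measured, 1 rose and 4 fell by day 7, 2 rose and 8 fell from day 7 to day 21, and 1 rose and 12 fell from day 4 to day 21, with a median of -0.38 in the last comparison. Of all genes 6.98%, 12.4% and 15.0% rose and 6.47%, 10.7% and 14.1% fell in these comparisons. Trim28, the co-repressor recruited by ZFP57, went from 11.49 ± 0.11 to 10.66 ± 0.04 between days 4 and 21 (-0.83 ± 0.09, limma adjusted p = 6.63e-05). Uhrf1, which guides maintenance methylation, changed by -1.21 ± 0.11, and Hells, a chromatin remodeller needed for methylation, by -1.36 ± 0.17 (adjusted p = 2.24e-05 and 1.71e-04). The de novo methyltransferases went different ways. Dnmt3b, the 1 factor that rose by day 7 (0.70 ± 0.13, adjusted p = 0.00411), then fell 17.1-fold (-4.09 ± 0.13, adjusted p = 1.91e-08) and had the largest net change of the 23, -3.39 ± 0.13. Dnmt3a fell by 0.53 to day 7 and then rose, for a net rise of 0.47 ± 0.10 (adjusted p = 0.00397). Zfp57 itself read 8.36 ± 0.09, 8.08 ± 0.08 and 8.11 ± 0.19 and was not called in any comparison.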

How the data were processed

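Each array's probe set signals were deposited by the authors in log2 form. Per the submitters' processing notes, the software was Affymetrix Expression Console and the method RMA. The sources used here do not give their versions. RMA brings arrays to a common distribution, which removes a shift of all transcripts together, and array medians lay between 5.88 and 5.98. RNA was labelled with a pico-scale kit per the labels, and the effect of amplification on dim transcripts was not tested. There is no read depth behind an array, so precision is limited by the number of arrays. No pair of arrays held identical values.

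Of 34365 probe sets 23521 carried 1 gene symbol, 1814 several and 9030 none here, and 23328 matched a RefSeq table of GRCm38.p6 by Entrez number. Keeping the brightest per gene left 22180 genes, 1082 of which had several. With limma 3.58.1 (lmFit and eBayes, R 4.3.3, two-sided), all 9 arrays entered 1 model that had a mean for each day, and the steps were tested on simulated data. Members, gene lists and alleles were chosen with earlier results of these data known. All measured members are described, and wider lists by counts and a few called genes, plus Igf2r and Zfp57, named for their roles after their values were seen. Same-numbered arrays of different days deviated with correlations of -0.05 to 0.26, so the numbers were not taken as pairs. Alternatives were another scaling, filter, probe set rule and spread, the replicate block, the compared days alone, and each array left out.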

Additional observations from a re-analysis of the deposited data

How the results depend on the processing

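No called change of a member reversed under any alternative, and of 1476 values for single members 1437 kept their side of the threshold without a change of a called direction, 28 lost and 10 gained a call, and 1, for Ube3a, moved. Among values called in neither fit, 26 changed sign. The count of members risen by day 7 was 12 to 15 with an array left out, and that of members fallen was 1 to 2, the 2 being without day 7 replicate 2. With the replicate block, which tests a pairing the numbers do not support, 14 rose by day 7 and Mest lost its call (limma adjusted p = 0.0584). Kcnq1 also lost its later call when only the days compared were fitted (0.0806). From day 4 to day 21 it gained a call in 4 other settings (adjusted p 0.0264 to 0.0473), and Grb10 gained one after quantile normalization (0.0491).

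Alternatives for the small RNA genes were chosen after seeing the data. Between days 4 and 21 the count risen was 0 among genes above background on at least 1 day, 3 with the replicate block and 0 to 5 with an array left out. The count fallen was 2 after quantile normalization, 2 with the background filter, 2 with a trended and robust spread, 2 when only the compared days were fitted, 3 with the replicate block and 1 to 4 with an array left out. The 42 risen by day 7 ranged from 36 to 43 and the 46 fallen afterwards from 40 to 47 over all alternatives. Members with means below the background of the array, such as Usp29 and Rasgrf1, are limited by signal over background.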
